A study of Mus musculus with 18 samples.

Results

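Development of the Esco2-mutant forelimb bud between E10.5 and E11.5 (embryonic days) was followed by comparing the 3 libraries labelled mutant E11.5 with the 3 labelled mutant E10.5, which are 6 of the 18 RNA sequencing libraries of the series. Mutants were Esco2fl/fl;Prrx1-CreTg/0: both Esco2 alleles carry loxP sites, and the Prrx1-Cre transgene deletes them in limb bud mesenchyme, so ectoderm, blood vessels, blood and immigrating muscle cells are not its main target. Controls were Esco2fl/fl without Cre, 3 libraries at each stage, and they carry the same loxP alleles, so effects of Cre and of Esco2 loss cannot be told apart. Labels describe individual forelimb buds and do not name the embryos they came from. P-values therefore rest on the spread between libraries, estimated over all 18 together, and not on that between known embryos. In bulk tissue, fewer cells of a type and less RNA per cell cannot be told apart.

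Esco2 is an acetyltransferase that acts on cohesin, the ring complex that holds sister chromatids together from DNA replication to mitosis. Cells that divide without it suffer mitotic damage, and p53, the transcription factor that answers such damage, can stop their cycle or trigger their death. Over these stages a normal forelimb bud grows outward under signals from the apical ectodermal ridge and the Shh-producing posterior mesenchyme, Sox9-expressing mesenchyme condenses and starts to lay down cartilage, and muscle precursors that came from the somites begin to differentiate. A comparison of mutant stages shows which of these programmes advanced.

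Total counts ran from 44402251 to 48147568 in the mutant E10.5 libraries and from 38805623 to 50213799 in the mutant E11.5 libraries. Haemoglobin transcripts took 1.96% of counts in mutant E10.5 replicate 3, against 0.388% to 0.989% in the other 5 mutant libraries. This library therefore stood apart, as did control E9.5 replicate 1, in which the fewest genes were detected (22294), and counts that rest on them are also given without both. Levels are CPM, counts relative to library size after TMM scaling. Changes are log2 values ± SE from edgeR's quasi-likelihood fit, in which a gene rose or fell when its Benjamini-Hochberg adjusted p over 20118 tested genes was under 0.05. Esco2 itself (chr14:65819038-65833994 in mm10) was at 21.9, 18.9 and 22.3 CPM in mutants at E10.5 and at 22.5, 23.8 and 22.6 CPM at E11.5 (0.12 ± 0.14, adjusted p = 0.81). In controls it was at 29.4, 33.6 and 28.1 and then at 30.9, 20.6 and 30.9 CPM, so mutant libraries were lower at E10.5 (-0.53 ± 0.14, adjusted p = 0.020), while at E11.5 the groups overlapped. Counts cover all exons, and tissue not targeted by Cre contributes, so this level checks the labels only in part.

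In mutants 402 genes rose and 179 fell from E10.5 to E11.5, which is 2.89% of the genes tested (2.0% up and 0.89% down). Of the 581, 577 had mutant libraries of both stages that did not overlap, against 24.5% of all genes tested. Changes of at least 2-fold were found for 301 of the rises and 94 of the falls, and the median change over all tested genes was -0.01. Among called genes with a mean log2 CPM of at least 1 and no overlap between the stages, the largest rises were in genes of contractile muscle, led by Mybph, Myl1, Myh3, Ttn, Mymk, Tnnc2, Trim55, Mylk4, Actc1 and Synpo2l, with Ogn, a connective tissue proteoglycan, and Ablim3, an actin-binding protein, among them. Their changes ran from 5.01 ± 0.50 (Synpo2l, a sarcomere protein) to 6.57 ± 0.99 (Mybph, a myosin-binding protein). Several of these genes started near 0 in mutants, such as Ablim3 at 0, 0.391 and 0.123 CPM at E10.5. The size and order of such changes are therefore no measure of fold. Under the same limits the largest falls were in Gpx2, Pklr, Gbx2, Cdx1, Lin28a, Krt23, Lbp, Hoxb1, Upk1a, Lmo1, Aqp3 and Adamts16, from -1.71 ± 0.34 (Adamts16) to -2.92 ± 0.62 (Gpx2). The limit on level is a mean over all libraries, those of E9.5 included. Cdx1 passed it although mutants were at 1.01, 0.694 and 0.513 and then 0.0974, 0.289 and 0.0979 CPM. Its fall was called in 9 of 23 alternatives. For Pklr, Lbp and Aqp3 the highest E10.5 value by more than 2-fold was that of replicate 3, the haemoglobin-rich library (Pklr 81.2 CPM against 27.0 and 34.6, Lbp 15.6 against 2.88 and 3.82, Aqp3 16 against 4.66 and 6.08).

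The number of calls depended on single libraries. It was 301, 383 and 231 without mutant E10.5 replicates 1, 2 and 3, 277 and 241 without mutant E11.5 replicates 1 and 2, and 722 without mutant E11.5 replicate 3. Without both libraries that stood apart, 459 genes rose and 193 fell. Of 92 called genes chosen for naming by a set rule, 39 kept their call without each single library of the E10.5 and E11.5 groups. Among the genes described here these were Myod1, Myh3, Myl1, Actc1, Ttn, Cdh15, Tnnc2, Synpo2l, Mybph, Mymk, Trim55, Mylk4, Ogn, Dcn, Osr2, Bmpr1b, Fst, Fgf9, Wif1, Nkd2, Stra6, Hoxc8, Tfap2c, Pknox2, Pax9, Lin28a, Nr6a1, Ebf3, Cdkn1c, Hic1, Acta2, Nos3, Pklr, Cldn7, Gbx2, Hoxb1, Upk1a and Pax8. The other 53 lost it without at least 1 library, most often mutant E10.5 replicate 3 or mutant E11.5 replicate 2 (46 each), then mutant E11.5 replicate 1 (39) and mutant E10.5 replicates 1 (37) and 2 (25).

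In controls over the same stages 1328 genes rose (6.6% of the genes tested) and 582 fell (2.89%), 9.49% in all. Mutants and controls share no library in this comparison. Of the 402 mutant rises, 290 also rose in controls, which is 72.1% of the mutant list and 21.8% of the control list, and 393 had the same sign. Of the 179 mutant falls, 73 also fell in controls (40.8% of the mutant list and 12.5% of the control list), and 158 had the same sign. The median change of the mutant rises was 1.57 in mutants and 1.36 in controls, and that of the mutant falls was -1.04 and -0.58. Read from the other side, the control rises had a median of 1.27 in controls and 0.52 in mutants, with the same sign for 86.5%, and the control falls had medians of -0.54 and -0.20, with the same sign for 90.9%. Each list favours the group that chose it. Over 12949 genes with a mean log2 CPM of at least 1, chosen without regard to their changes, the median absolute change was 0.14 in mutants and 0.19 in controls, 470 genes (3.63%) and 676 genes (5.22%) were past 2-fold, and the median SE was 0.16 in both. Across these genes the changes in mutants and controls had a Pearson correlation of 0.61 and a Spearman correlation of 0.46, as a description, since genes are not independent. Without mutant E10.5 replicate 3 and control E9.5 replicate 1 the control count was 2147 up and 1576 down. Leaving out single control libraries gave 781, 1191 and 940 calls for E10.5 replicates 1, 2 and 3 and 1893, 1002 and 694 for E11.5 replicates 1, 2 and 3.

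Each library was also placed on the control E10.5 to E11.5 change by the mean log2(CPM + 1) of the 1328 genes that rose in controls minus that of the 582 that fell, with the control E10.5 mean set to 0 and the control E11.5 mean to 1. Mutant E10.5 libraries lay at -0.22, -0.12 and -0.15 and mutant E11.5 libraries at 0.45, 0.41 and 0.12. The mutant libraries thus moved forward from a mean of -0.17 ± 0.053 to 0.33 ± 0.18 (SD, n = 3), without overlap between stages, and stayed below every control E11.5 library (0.76, 1.07 and 1.17). Controls at E9.5 lay at -0.50 ± 0.067 and mutants at E9.5 at -0.46 ± 0.029. Since the control stages chose these genes, the control span is favoured, and the positions are given with no test. The lowest E11.5 positions were those of mutant replicate 3 and control replicate 1. The labels give these libraries names with the same leading number, whose meaning they do not state, and the deviations of these libraries from their group means correlated at 0.26 across genes. Mutant E10.5 replicates 1 and 2 also share a leading number with control E10.5 replicates 1 and 2, and there the correlations were 0.0865 and -0.0735 for mutant replicate 1 and -0.075 and 0.0596 for mutant replicate 2. The share of this in the results was not tested beyond the counts without each library.

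**Figure D1:**
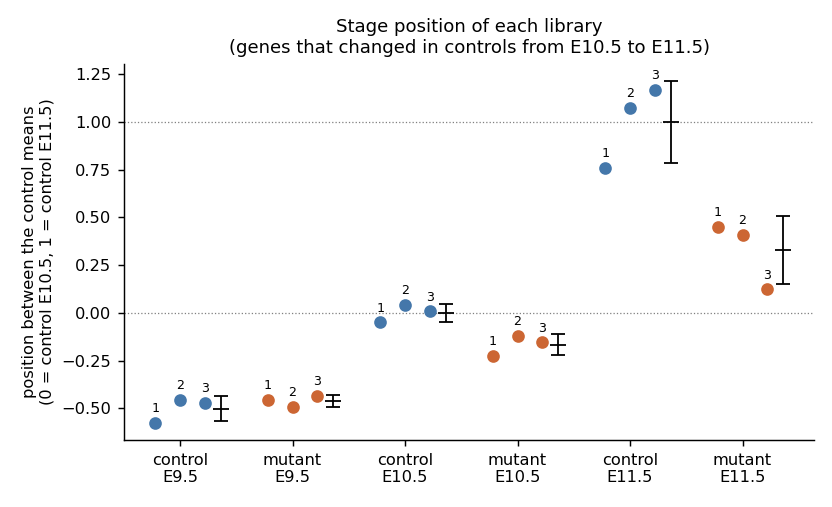
Stage position of each of the 18 libraries (y axis, no unit: 0 is the control E10.5 mean and 1 the control E11.5 mean), by group, with replicate numbers over the points and the mean ± SD of 3 libraries at the right of each group. Mutant E11.5 libraries lie between 0.12 and 0.45, above all E10.5 libraries and below all control E11.5 libraries.

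The change itself differed between mutants and controls for 15 genes (0.0746% of those tested). In 14 of them (0.0696%) the mutant change was the lower one, and 7 of these are in the cartilage list. At an unadjusted p under 0.05 there were 1705 genes, and DESeq2 called 195. This count was unstable: it was 64 without control E11.5 replicate 1. It was 0, 5, 0, 0 and 2 without control E10.5 replicates 1, 2 and 3 and E11.5 replicates 2 and 3, and 7, 3, 0, 8, 6 and 4 without the mutant libraries in order of stage and replicate. For all other genes a difference in call between genotypes is not a tested difference.

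Mutant-control differences present at E10.5 were mostly still called at E11.5. Of 2802 genes that differed at E10.5 (13.9% of the genes tested) 1469 were higher (7.3%) and 1333 lower (6.63%) in mutants, and at E11.5 3529 differed (17.5%), 1613 higher (8.02%) and 1916 lower (9.52%). Of the 1469, 781 were still higher (53.2% of the E10.5 list and 48.4% of the E11.5 list), 4 were lower, and the median difference went from 1.10 to 0.69. Of the 1333, 854 were still lower (64.1% and 44.6%), 0 were higher, and the median went from -0.72 to -0.62. The E10.5 values chose these genes, which favours E10.5. The stage change differed by the test for 5 and 4 of them. These comparisons share the mutant libraries with the stage comparison and are given side by side only.

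**Figure D2:**
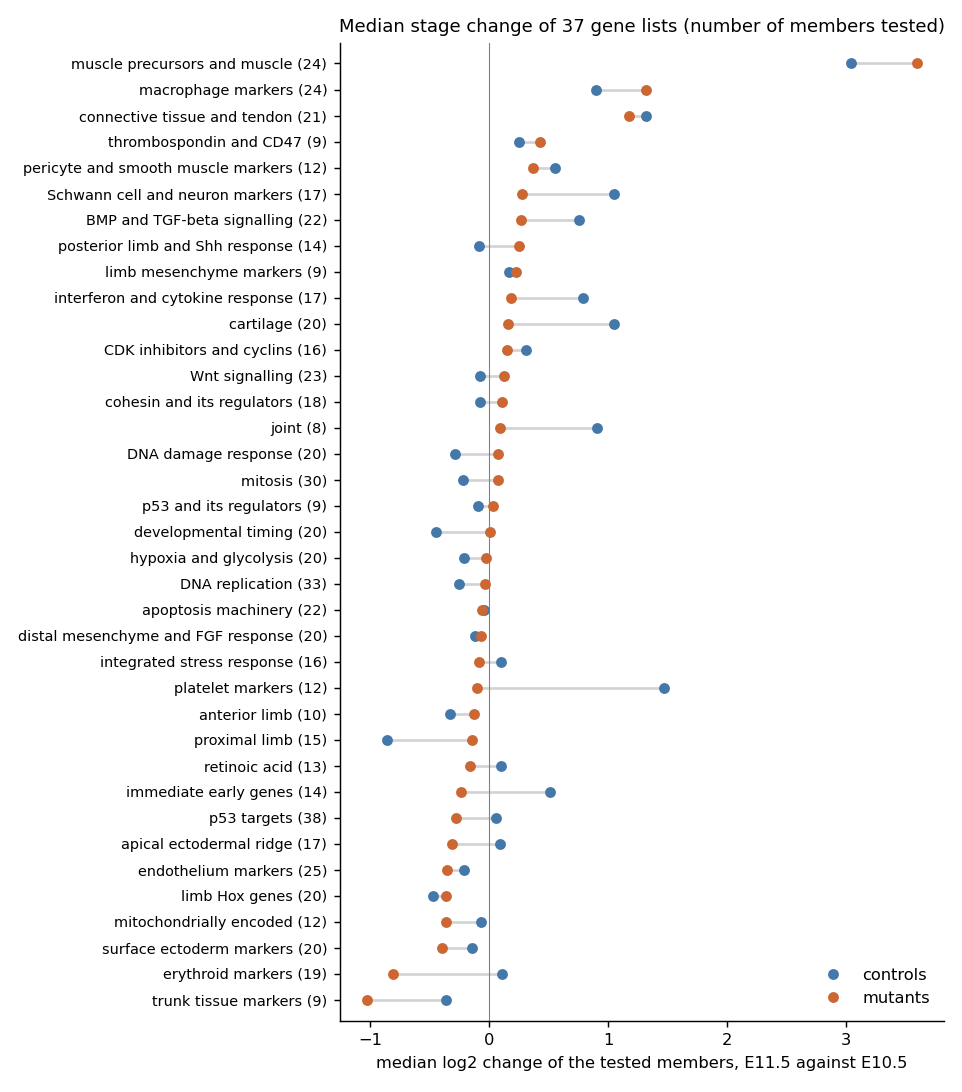
Median log2 change from E10.5 to E11.5 (x axis) of the tested members of each of 37 gene lists (y axis, number tested in parentheses) in mutants and in controls, ordered by the mutant median. The muscle list lies farthest to the right in both groups (3.59 in mutants and 3.04 in controls), while the cartilage list is at 0.15 in mutants and 1.05 in controls.

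Most muscle genes rose in mutants. Of 24 tested genes of muscle precursors and muscle, 16 rose and 0 fell in mutants, and 18 rose and 1 fell in controls, with 15 rising in both. Of all tested genes 2.0% rose and 0.89% fell in mutants and 6.6% rose and 2.89% fell in controls, which is the background for the count of every list. The median change was 3.59 in mutants and 3.04 in controls, against medians of -0.0077 and -0.0027 over all tested genes. The difference in change was called for 0 of the 24 (4 at an unadjusted p under 0.05, 1 by DESeq2). Without both libraries that stood apart 13 rose, and leaving out single libraries left 12 to 17. Summed over the list, levels were 255, 398 and 288 CPM in mutants at E10.5 and 1049, 916 and 595 CPM at E11.5, beside 271, 216 and 257 and then 518, 880 and 1099 CPM in controls. Mutant E11.5 replicate 3 and control E11.5 replicate 1 were the lowest libraries of their groups.

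Myod1 (chr7:46376474-46379099), the factor that commits cells to the muscle lineage, was at 3.80, 9.05 and 2.87 CPM in mutants at E10.5 and at 85.6, 89.9 and 29.6 CPM at E11.5 (3.71 ± 0.48, adjusted p = 0.00050). All 3 E11.5 libraries were above all 3 E10.5 libraries, and the lowest was again replicate 3. Control values were 4.39, 8.07 and 6 CPM and then 39.3, 61.5 and 60.7 CPM. Myog, which drives differentiation, was at 3.47, 11 and 4.88 and then 97.4, 87.5 and 42.6 CPM, a change of 3.56 ± 0.95 that missed the threshold (adjusted p = 0.071). Cdh15, a cadherin of myogenic cells, went from 4.35, 9.92 and 3.45 to 85.5, 67.4 and 43.0 CPM (3.47 ± 0.41, adjusted p = 0.00023).

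Genes of the contractile apparatus started near the detection floor in mutants. Myh3, the embryonic myosin heavy chain (chr11:67078300-67102291), was at 0.550, 1.22 and 0.492 CPM in mutants at E10.5 and at 50.3, 63.6 and 24.0 CPM at E11.5 (5.93 ± 1.00, adjusted p = 0.0060). Control E10.5 libraries were at 13.4, 0.687 and 13.9 CPM, so replicate 2 lay within the mutant range and the groups overlapped. By edgeR's test the mutants were lower at E10.5 (-3.64 ± 0.95, adjusted p = 0.022). At E11.5 the difference was -1.43 ± 0.77 (adjusted p = 0.23). Actc1, the cardiac alpha-actin that embryonic skeletal muscle also makes, went from 1.67, 3.67 and 2.4 to 119, 97.3 and 43.3 CPM (5.07 ± 0.78, adjusted p = 0.0031). Ttn, the giant spring protein of the sarcomere, went from 0.198, 0.933 and 0.738 to 42.7, 49.4 and 15.8 CPM (5.84 ± 0.97, adjusted p = 0.0049). Pax3, which marks migrating precursors before they differentiate, followed another course. It was at 43.0, 53.4 and 45.4 CPM in mutants at E10.5 and at 42.4, 34.8 and 46.8 CPM at E11.5 (-0.19 ± 0.29, adjusted p = 0.86). In controls it fell from 32, 22 and 24.9 to 9.30, 3.82 and 3.9 CPM (-2.21 ± 0.31, adjusted p = 0.00042). The stages overlapped in mutants and not in controls, but the difference in change, 2.01 ± 0.42, missed the threshold (adjusted p = 0.10). Pax7, which marks later precursors, rose in both genotypes (2.78 ± 0.46 in mutants, adjusted p = 0.0026).

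Myogenic factors of the Myod1 family bind E-boxes, written CANNTG, and muscle genes often carry the form CAGCTG. RefSeq promoter sequences (GRCm38.p6, 250 bases before the start) were found for 12 of the 16 muscle genes that rose in mutants. Of these 12, 9 held CANNTG (75%), against 58.1% of the 12680 promoters of tested genes, and 3 held CAGCTG (25%), against 12.2%. Over all 27025 promoters, of genes tested or not, the shares were 66.0% and 12.8%. CAGCTG is a case of CANNTG, and both were searched on both strands, where they read the same. A match describes letters in this window and is neither a binding site nor a cause. The promoters of 3 sarcomere genes among the 12 are shown, 5′ to 3′ on the gene's strand with E-boxes in capitals, to let the differing number of matches be seen: myosin light chain Myl1 (chr1:66945057-66945306, minus strand), troponin I gene Tnni1 (chr1:135799171-135799420, plus strand) and troponin C gene Tnnc2 (chr2:164779735-164779984, minus strand).
Myl1: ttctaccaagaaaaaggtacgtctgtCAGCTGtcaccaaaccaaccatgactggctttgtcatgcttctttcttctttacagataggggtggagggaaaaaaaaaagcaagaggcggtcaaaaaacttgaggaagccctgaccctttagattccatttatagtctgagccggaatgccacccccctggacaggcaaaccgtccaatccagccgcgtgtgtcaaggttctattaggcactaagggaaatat
Tnni1: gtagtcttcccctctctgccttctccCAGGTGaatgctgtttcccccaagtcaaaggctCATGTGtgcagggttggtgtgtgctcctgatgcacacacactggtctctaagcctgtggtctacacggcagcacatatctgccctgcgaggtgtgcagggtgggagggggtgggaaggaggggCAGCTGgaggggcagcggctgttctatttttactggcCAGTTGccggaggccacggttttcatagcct
Tnnc2: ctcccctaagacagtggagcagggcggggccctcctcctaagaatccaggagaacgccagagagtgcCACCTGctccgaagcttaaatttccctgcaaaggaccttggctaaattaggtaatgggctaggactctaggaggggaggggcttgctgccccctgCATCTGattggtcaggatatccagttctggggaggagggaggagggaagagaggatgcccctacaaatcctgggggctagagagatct
The windows hold 1, 4 and 2 matches to CANNTG, and those of Myl1 and Tnni1 hold CAGCTG. Promoters without a match, such as that of Actc1, are not shown. Myl1 was at 0.0660, 0.282 and 0.226 CPM in mutants at E10.5 and at 16.8, 14.2 and 5.36 CPM at E11.5 (5.96 ± 0.76, adjusted p = 0.00041). Tnnc2 was at 0.0879, 0.130 and 0.103 and then at 7.43, 4.74 and 1.71 CPM (5.40 ± 0.81, adjusted p = 0.0020).

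Among 21 tested connective tissue and tendon genes 10 rose and 0 fell in mutants and 15 rose and 0 fell in controls, with medians of 1.17 and 1.31, and the change differed by the test for 0 (4 at an unadjusted p under 0.05, 0 by DESeq2). Against controls 10 of the 21 were lower in mutants at E10.5 and 16 at E11.5 (6.63% and 9.52% of all tested genes), and 0 were higher at either stage. Dcn, the collagen-binding proteoglycan decorin, went from 0.484, 1.45 and 0.492 to 15.3, 4.12 and 4.21 CPM in mutants (3.28 ± 0.57, adjusted p = 0.0041), with replicate 1 far above the other two. Col6a1, a collagen VI chain, went from 8.20, 9.42 and 8.76 to 26.3, 18.2 and 12.6 CPM (1.11 ± 0.23, adjusted p = 0.013). In controls it went from 12.6, 13.6 and 16.4 to 35.9, 57.2 and 63.6 CPM (1.88 ± 0.23), and the difference of these changes, -0.77 ± 0.32, missed the threshold (adjusted p = 0.51). Col1a2, a chain of the main collagen of tendon and bone, went from 257, 274 and 218 to 533, 446 and 365 CPM (0.84 ± 0.20, adjusted p = 0.032), with no overlap of the stages. The list's count rested on single libraries: 2 rose without mutant E10.5 replicate 1, without E10.5 replicate 3 or without E11.5 replicate 1, 4 without E11.5 replicate 2, and 6 without both libraries that stood apart.

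Most cartilage genes that rose in controls did not pass the test in mutants. Of 20 tested, 1 rose and 2 fell in mutants, while 15 rose and 1 fell in controls, with median changes of 0.15 and 1.05. The change differed by the test for 7: Matn4, Col2a1, Col11a2, Col9a3, Acan, Wwp2 and Matn1, all lower in mutants. Summed over the list, mutants were at 623, 619 and 656 CPM at E10.5 and at 445, 506 and 517 CPM at E11.5, and controls at 991, 1217 and 1076 and then at 1969, 2183 and 1908 CPM. All mutant E11.5 sums were below all mutant E10.5 sums, and in controls the order was the reverse. Sums weigh abundant members most, such as Col2a1, which fell in mutants. Taken gene by gene, mutant changes were above 0 for 12 of the 20 tested and below 0 for 8. Mutant counts on this list were between 0 and 4 when single libraries were left out: 1 without mutant E10.5 replicate 1, E10.5 replicate 3 or E11.5 replicate 1, and 0 without E10.5 replicate 2 or E11.5 replicate 2.

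Col2a1, the main collagen of cartilage (chr15:97975602-98004695), was at 254, 273 and 309 CPM in mutants at E10.5 and at 114.6, 135 and 184 CPM at E11.5 (-0.95 ± 0.22, adjusted p = 0.026). In controls it rose from 383, 481 and 424 to 806, 848 and 728 CPM (0.89 ± 0.22, adjusted p = 0.017). Every mutant E11.5 library was below every mutant E10.5 library, the reverse of the order in controls, and the difference of the changes was -1.84 ± 0.31 (adjusted p = 0.040). It is 1 of 3 genes called in opposite directions, with Aqp1 and Pcdh19. The call of the Col2a1 fall in mutants was lost without mutant E10.5 replicate 1, 2 or 3 or E11.5 replicate 1 or 2. Its difference of the changes was called in 11 of 22 alternatives. Matn4, a matrix protein of the matrilin family (chr2:164389393-164405160), was at 1.96, 3.88 and 5.56 CPM and then at 4.89, 6.13 and 3.69 CPM in mutants, while controls went from 0.226, 1.53 and 0.399 to 20.2, 51.9 and 36.2 CPM. Mutant stages overlapped, and the difference was -5.30 ± 0.81 (adjusted p = 0.020).

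Chains of the minor cartilage collagens stayed low. Col9a3 was at 2.79, 3.47 and 3.42 and then at 3.87, 6.65 and 2.94 CPM in mutants, against 5.64, 10.8 and 8.49 and then 52.2, 91.0 and 67.4 CPM in controls (difference -2.60 ± 0.42, adjusted p = 0.030). Col11a2 was at 5.45, 5.34 and 6.01 and then at 8.01, 5.76 and 4.43 CPM in mutants, against 5.08, 4.34 and 5.78 and then 24.4, 40.8 and 26.9 CPM in controls (difference -2.48 ± 0.38, adjusted p = 0.020). Both sets of mutant libraries overlapped between stages, and neither gene was called within mutants. Col9a2 did rise in mutants, from 1.36, 0.803 and 1.48 to 5.02, 5.8 and 2.30 CPM (1.85 ± 0.39, adjusted p = 0.014), to well below the 64.0, 114 and 88.3 CPM of controls at E11.5. Acan, the large proteoglycan aggrecan, was under 1 CPM in all 6 mutant libraries and reached 3.09, 14.0 and 8.30 CPM in controls at E11.5 (difference -5.97 ± 1.05, adjusted p = 0.047). Matn1 differed in another way: mutants were at 2.95, 2.28 and 3.38 and then at 2.46, 2.25 and 3.35 CPM, and controls rose from 0.0410, 0.177 and 0 to 2.08, 8.17 and 5.09 CPM (difference -6.22 ± 1.02, adjusted p = 0.034), so it was higher in mutants at E10.5 (5.30 ± 0.82, adjusted p = 0.00039). Fitted changes of genes this near to 0 depend on the prior count and are no measure of fold.

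Sox9, the factor that starts cartilage formation (chr11:112782224-112787760), was at 24.5, 22.3 and 18.0 CPM in mutants at E10.5 and at 28.5, 27.9 and 17.6 CPM at E11.5 (0.19 ± 0.18, adjusted p = 0.76). Controls rose from 104.8, 139 and 128 to 208, 192 and 170 CPM (0.61 ± 0.18, adjusted p = 0.041), and the changes did not differ by the test (-0.42 ± 0.26, adjusted p = 0.69). Mutants were below controls by 2.52 ± 0.19 at E10.5 and by 2.94 ± 0.19 at E11.5, with no library near the control range. Wwp2, the host gene of a cartilage microRNA, was at 71.2, 69.0 and 73.8 and then at 69.0, 80.4 and 72.5 CPM in mutants, against 93.6, 120 and 119 and then 233, 247 and 184 CPM in controls (difference -0.95 ± 0.16, adjusted p = 0.047). Hapln1, the link protein of proteoglycan aggregates, fell in both, from 93.7, 90.2 and 82.7 to 33.4, 28.0 and 59.3 CPM in mutants (-1.14 ± 0.29, adjusted p = 0.042). Of 8 joint genes 1 rose in mutants and 5 in controls. The mutant riser was Osr2, an odd-skipped factor of joints and connective tissue, at 1.71, 2.58 and 1.35 and then 14.7, 14.0 and 5.21 CPM (2.59 ± 0.36, adjusted p = 0.00058), toward control levels of 22.5, 33.7 and 37.6 and then 37.6, 34.6 and 36.1 CPM. Its difference in change was 2.38 ± 0.47 (adjusted p = 0.087).

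**Figure D3:**
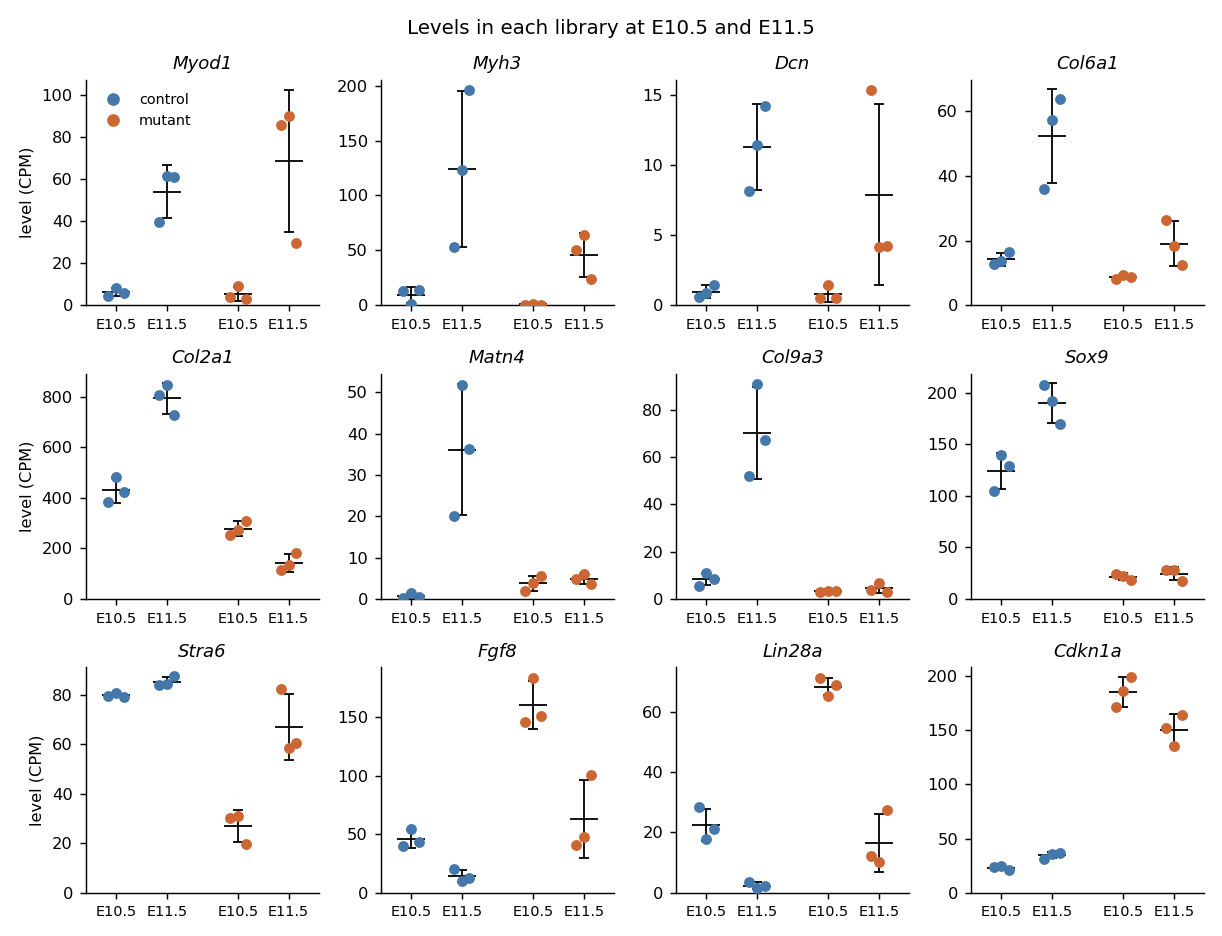
Level in CPM (y axis, linear from 0) of 12 genes in each control and mutant library at E10.5 and E11.5 (points), with the mean ± SD of 3 libraries. Myod1 and Myh3 rise in both genotypes, Col2a1 falls in mutants and rises in controls, Matn4 and Col9a3 stay at or under 6.65 CPM in mutants, and Stra6 comes up to 58.5 to 82.4 CPM in mutants at E11.5.

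**Figure D4:**
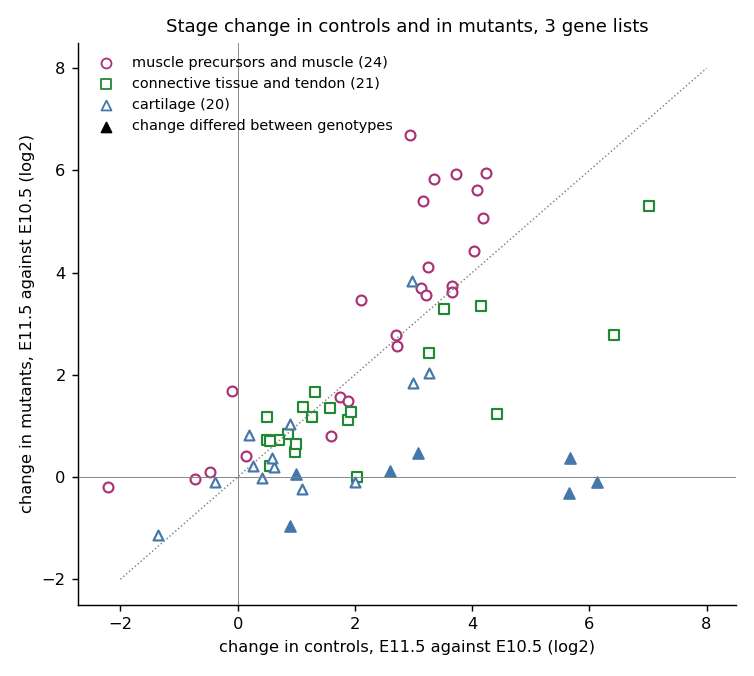
Log2 change from E10.5 to E11.5 in mutants (y axis) against that in controls (x axis) for the tested members of the muscle, connective tissue and cartilage lists, with the line of equal change dotted. Filled triangles are the 7 cartilage genes whose change differed by the test, all below the line; muscle genes lie around and above it.

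Of the other 8 genes with a tested difference, 7 had the lower change in mutants. Rflna, an actin-binding refilin, was at 0.813, 0.825 and 1.00 and then 0.974, 0.501 and 0.612 CPM in mutants and rose in controls from 1.03, 1.15 and 1.02 to 5.95, 13.8 and 12.4 CPM (difference -3.68 ± 0.52, adjusted p = 0.020). Ebf1, a transcription factor of connective tissue and blood lineages, was at 7.04, 6.51 and 5.91 and then 9.96, 13.6 and 7.61 CPM in mutants, against 10.3, 14.5 and 14.7 and then 47.2, 107 and 113 CPM in controls (difference -2.07 ± 0.37, adjusted p = 0.047). Aqp1, a water channel of endothelium and red cells, fell in mutants (-1.15 ± 0.25) and rose in controls (0.93 ± 0.25). Kcnj2, Sgk1 and Samd12 rose in controls and did not pass the test in mutants. The seventh, Inka2, is described with the p53 targets.

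Stra6, the cell-surface receptor that takes up retinol (chr9:58063788-58153996), was the 1 gene with a higher change in mutants. It went from 30.2, 31.0 and 19.6 to 82.4, 58.5 and 60.3 CPM in mutants (1.32 ± 0.16, adjusted p = 0.00024). Controls were at 79.5, 80.9 and 79.3 and then at 84.0, 84.2 and 87.7 CPM (0.09 ± 0.15, adjusted p = 0.78), and the changes differed by 1.22 ± 0.22 (adjusted p = 0.047). This difference was called in 8 of 22 alternatives. Among the fits without a single library it was called only without control E11.5 replicate 1. Mutants lay below controls by 1.57 ± 0.16 at E10.5 and by 0.35 ± 0.15 at E11.5 (adjusted p = 0.14), and at E11.5 all 3 mutant libraries were still under the lowest control. Elsewhere in the retinoic acid list of 13 genes, Crabp1, a retinoic acid carrier, fell in mutants (-1.11 ± 0.26) and in controls (-0.88 ± 0.26). The fall of Crabp1 was lost without mutant E10.5 replicate 1, 2 or 3 or E11.5 replicate 2.

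Limb patterning genes moved little as groups in mutants. Of 20 limb Hox genes 0 rose and 3 fell, Hoxc8 (-1.16 ± 0.21), Hoxa11 (-0.95 ± 0.22) and Hoxd8 (-0.97 ± 0.24), and 2 rose and 4 fell in controls. Hoxd13, which patterns the digits, was at 121, 156 and 122.8 and then 209, 415 and 182 CPM in mutants (1.01 ± 0.28, adjusted p = 0.067), with no overlap and replicate 2 far above the others. Hoxa13, its partner in the autopod, was at 20.7, 23.5 and 24.4 and then 37.9, 72.4 and 33.3 CPM (1.07 ± 0.28, adjusted p = 0.051). Control changes were 1.59 ± 0.29 and 1.11 ± 0.28, and neither gene passed the test against controls at either stage. Without mutant E11.5 replicate 3 the Hox count was 3 up and 4 down, and without mutant E10.5 replicate 1 or 3 or E11.5 replicate 1 or 2 it was 0 up and 1 down. Evx2, next to the Hoxd cluster, rose from 2.97, 8.09 and 5.31 to 23.8, 50.5 and 14.0 CPM (2.43 ± 0.47, adjusted p = 0.0088), and Tfap2c, Sall3 and Sall4 of the distal list of 20 fell, as they did in controls. Of 15 proximal genes 2 rose, Pknox2 and Tbx18. In the anterior list Pax9 and Irx6 rose. The distal list had 1 rise and 1 fall without mutant E10.5 replicate 1 or 3 or E11.5 replicate 1, and 0 and 2 without E11.5 replicate 2. The proximal list had 1 rise without mutant E10.5 replicate 3 or E11.5 replicate 2, and Irx6 was called in 2 of the 12 fits without a single library, those without mutant E10.5 replicate 3 and without mutant E11.5 replicate 3.

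Signals of the ridge and the posterior margin were measured as follows. Fgf8, the main growth signal of the ridge (chr19:45736798-45742915), fell in mutants from 146, 184 and 152 to 40.7, 47.8 and 101 CPM (-1.35 ± 0.33, adjusted p = 0.039). In controls it fell from 40.0, 54.8 and 43.9 to 20.3, 10.4 and 12.9 CPM, so mutants stayed above controls at both stages (1.80 ± 0.34 and 2.12 ± 0.35), and the mutant E11.5 values overlapped the control E10.5 values. Fgf9, a further ridge signal, rose from 6.46, 7.2 and 6.11 to 21.6, 18.9 and 13.4 CPM (1.45 ± 0.21, adjusted p = 0.0011). Of 17 ridge genes 1 rose and 2 fell, Fgf8 and Cd44, a hyaluronan receptor. The list had 0 falls when any 1 of mutant E10.5 replicates 1 to 3, mutant E11.5 replicates 1 and 2 or control E10.5 replicates 1 and 3 was left out, or both libraries that stood apart, and without mutant E11.5 replicate 3 the list had 6 falls. Surface ectoderm markers, which share a tissue with the ridge, summed to 897, 1158 and 1342 CPM in mutants at E10.5 and to 1000, 946 and 1248 CPM at E11.5, and their part in these results was not tested.

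Shh, the posterior signal, was at 12.8, 8.94 and 10.9 CPM in mutants at E10.5 and at 0.633, 2.06 and 7.49 CPM at E11.5 (-1.68 ± 0.79, adjusted p = 0.38). In controls it was at 18.1, 19.9 and 15.6 and then at 7.33, 0.791 and 0.572 CPM (-2.62 ± 0.81, adjusted p = 0.057). Stages did not overlap in either genotype, and the highest E11.5 values were those of mutant replicate 3 and control replicate 1. Of 14 posterior and Shh response genes 0 passed edgeR's test in mutants, with 6 at an unadjusted p under 0.05 and 3 called by DESeq2. Without mutant E11.5 replicate 3 the count was 2, and without E10.5 replicate 2 it was 1.

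Among 22 genes of BMP and TGF-beta signalling, which shape cartilage, joints and the regression of the ridge, 6 rose and 0 fell in mutants and 13 rose in controls, 5 of them shared. Bmpr1b, a BMP receptor of cartilage condensations, rose from 8.97, 8.79 and 6.73 to 24.9, 23.6 and 21.4 CPM (1.51 ± 0.19, adjusted p = 0.00038), overlapping the 24.7, 25 and 30.5 CPM of controls. Fst, an activin antagonist, rose from 0.594, 1.45 and 1.29 to 10.54, 8.82 and 3.94 CPM (2.80 ± 0.47), and Inhba, the activin A subunit, from 0.264, 0.803 and 0.226 to 7.82, 5.05 and 1.32 CPM (3.45 ± 0.72). Tgfb3, Nog and Mstn were the others. Without mutant E10.5 replicate 1, E10.5 replicate 3 or E11.5 replicate 1 the count was 2, and without E11.5 replicate 2 it was 3. Of 23 Wnt genes, 3 regulators rose, the secreted inhibitors Wif1 (1.48 ± 0.23) and Dkk2 (1.04 ± 0.27) and the feedback gene Nkd2 (0.80 ± 0.13), and Tcf7, a nuclear effector, fell (-0.66 ± 0.15). The Wnt count was 2 up and 0 down without mutant E10.5 replicate 1 or 3, E11.5 replicate 1 or 2, or both libraries that stood apart, and 4 up and 4 down without E11.5 replicate 3.

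Some genes of developmental timing changed in mutants as they did in controls. Lin28a, an RNA-binding protein of early embryonic cells that blocks maturation of let-7 microRNAs (chr4:134003330-134018841), fell from 71.0, 65.3 and 68.7 to 12.1, 10.1 and 27.6 CPM in mutants (-2.05 ± 0.31, adjusted p = 0.0015). In controls it fell from 28.4, 17.9 and 21.0 to 3.56, 1.48 and 2.14 CPM, so the mutant E11.5 values overlapped the control E10.5 values. Nr6a1, a nuclear receptor of the trunk-forming embryo, fell from 17.2, 15.1 and 16.2 to 5.82, 5.57 and 7.17 CPM (-1.39 ± 0.16, adjusted p = 0.00015). Of 20 timing genes 3 rose and 5 fell in mutants and 6 rose and 11 fell in controls. The other falls were Mycn, Trim71 and Arid3a, and the rises Ebf3, Ebf2 and Nfia. Lin28b, the relative of Lin28a, was at 114, 84.8 and 93.0 and then 47.5, 49.2 and 73.4 CPM (-0.78 ± 0.23, adjusted p = 0.090). Hmga2 and Igf2bp1, let-7 targets of young tissue, fell in controls (-0.71 ± 0.17 and -0.54 ± 0.13) and were near 0 in mutants (-0.06 ± 0.16 and -0.11 ± 0.13), with no tested difference (adjusted p = 0.40 and 0.54). Counts were 3 to 9 over single left-out libraries: 3 without mutant E10.5 replicate 1, E10.5 replicate 3 or E11.5 replicate 1, and 4 without E10.5 replicate 2, E11.5 replicate 2 or both libraries that stood apart.

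Most p53 targets were still above controls in mutants at E11.5. Of 38 p53 target genes 0 rose and 2 fell from E10.5 to E11.5, Ak1 and Pidd1, both by 0.47 ± 0.11, and the median change was -0.28 in mutants and 0.06 in controls. Values were below 0 for 31 of 38 in mutants. DESeq2 called 0 up and 3 down, and without any 1 of mutant E10.5 replicates 1 and 3 or E11.5 replicates 1 and 2, 0 were called. The count was 1 without E10.5 replicate 2 and 3 without E11.5 replicate 3. Against controls 29 of the 38 were higher at E10.5 and 27 at E11.5, with 24 higher at both, where 7.3% and 8.02% of all tested genes were higher. Mutant-control results of these data were known when the list was made, so its direction against controls is not independent evidence.

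Cdkn1a, the p21 inhibitor of cyclin-dependent kinases (chr17:29090976-29100727), was at 171, 186 and 199 CPM in mutants at E10.5 and at 152, 135 and 164 CPM at E11.5 (-0.30 ± 0.13, adjusted p = 0.30). Controls rose from 23.5, 24.9 and 20.9 to 31.4, 35.8 and 36.3 CPM (0.58 ± 0.13, adjusted p = 0.0099). The mutant excess was 3.00 ± 0.14 at E10.5 and 2.12 ± 0.13 at E11.5, and the difference of the changes, -0.88 ± 0.18, missed the threshold (adjusted p = 0.10). Mdm2, which p53 induces and which degrades p53, was at 147, 138 and 159 and then 113, 110 and 130 CPM (-0.33 ± 0.09, adjusted p = 0.051), with an excess over controls of 1.16 ± 0.09 and then 0.86 ± 0.09. All E11.5 libraries were below all E10.5 libraries for both genes. Inka2, a kinase inhibitor, was the 1 p53 target whose change differed by the test (-2.08 ± 0.28, adjusted p = 0.016). It was at 23.3, 22.8 and 25.8 and then 18.1, 18.6 and 21.2 CPM in mutants and rose in controls from 0.984, 1.44 and 1.04 to 3.05, 4.01 and 4.70 CPM. Trp53, the p53 gene, was at 304, 288 and 284 and then 255, 256 and 258 CPM in mutants (-0.19 ± 0.10, adjusted p = 0.43).

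Other targets stayed far above controls at E11.5. Ptprv was at 26.2, 23.8 and 44.8 CPM against 1.31, 1.69 and 1.54, and Eda2r, a death-domain receptor, at 15.3, 16.3 and 23.3 CPM against 1.41, 0.896 and 0.621. Fas, a death receptor, was at 3.41, 3.72 and 5.19 against 0.258, 0.395 and 0.447 CPM, and Ccng1, a cyclin that p53 induces, at 103, 95.9 and 145 against 26.9, 27.6 and 29.4 CPM. In all 4 the highest of the mutant E11.5 libraries was replicate 3.

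Among 16 CDK inhibitors and cyclins, Cdkn1c, the p57 inhibitor of cells that leave the cycle, rose from 247, 344 and 265 to 843, 808 and 546 CPM in mutants (1.36 ± 0.19, adjusted p = 0.00067), against 532, 692 and 606 and then 830, 1069 and 1141 CPM in controls. Ccng2, an atypical cyclin of resting cells, also rose (0.56 ± 0.13), a call lost without mutant E10.5 replicate 1 or 3 or E11.5 replicate 1 or 2. Among cell division genes edgeR's test called 0 in mutants of 33 for DNA replication, of 30 for mitosis, of 18 for cohesin and its regulators, and of 20 for the DNA damage response. At an unadjusted p under 0.05 these lists had 0, 2, 0 and 2, and DESeq2 called 0, 0, 0 and 1. In controls 7 replication genes, 2 mitosis genes and 5 damage response genes fell. Of 22 apoptosis genes 0 passed edgeR's test, with 3 at an unadjusted p under 0.05 and 1 by DESeq2.

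Markers of other cell types were measured because buds are mixtures. Limb mesenchyme markers, the tissue that Cre targets, were present in every library and summed to 1012, 915 and 764 CPM in mutants at E10.5 and 1002, 1083 and 950 CPM at E11.5, against 1649 to 1738 and 1898 to 1999 CPM in controls, so mutants lay below controls at both stages. Of 9 tested, Hic1 (1.45 ± 0.26) and Zeb2 (0.77 ± 0.19) rose, and Zeb2 was called in 1 of the 12 fits without a single library. Prrx1 itself, whose promoter drives the Cre, was at 283, 181 and 153 and then 219, 259 and 240 CPM in mutants.

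Summed macrophage markers were higher in each mutant E11.5 library, going from 98.7, 148 and 128 to 379, 272 and 203 CPM, without overlap, while controls went from 87.7, 103 and 97.9 to 138, 151 and 146 CPM. Of 24 tested, 3 rose, Adgre1 (2.30 ± 0.51), C1qa (2.12 ± 0.48) and Csf1r (1.55 ± 0.36), which encode F4/80, a complement subunit and the macrophage growth factor receptor. Changes were above 0 for 23 of 24, the median was 1.32 in mutants and 0.89 in controls, limma-voom called 13 and DESeq2 10. The count was 0 without mutant E10.5 replicate 1 or 3, E11.5 replicate 1 or 2, or both libraries that stood apart, and 5 without E11.5 replicate 3. The difference in change was called for 0 of 24, with 0 at an unadjusted p under 0.05 and 0 by DESeq2. The part of macrophages in the other results was not tested.

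Endothelial markers went the other way, from 918, 986 and 822 to 762, 699 and 639 CPM in sum, and controls from 811, 735 and 772 to 756, 647 and 652 CPM. Of 25 tested, 5 fell in mutants (Nos3, Esam, Eng, Tie1 and Ramp2, genes of the vessel wall and its signalling) and 0 in controls. Nos3, the endothelial nitric oxide synthase, fell from 18.5, 20.1 and 15.1 to 9.25, 10.2 and 11.8 CPM (-0.78 ± 0.14, adjusted p = 0.0050). The change differed by the test for 0 of 25 (5 at an unadjusted p under 0.05, 0 by DESeq2). Dropping mutant E10.5 replicate 1 or 2 or E11.5 replicate 2 or 3 left 1 call, dropping mutant E10.5 replicate 3 left 2, and dropping control E10.5 replicate 1 or 3 or E11.5 replicate 2 left 3, while 9 were called without both libraries that stood apart.

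Erythroid markers summed to 6508, 10168 and 20468 CPM in mutants at E10.5 and to 9431, 6438 and 4067 CPM at E11.5, with overlap. The factors Klf1 and Gata1 and the embryonic globin Hbb-bh1 fell, and 0 of the 19 were called without mutant E10.5 replicate 3, E11.5 replicate 2 or E11.5 replicate 3. Without both libraries that stood apart 0 were called, and without mutant E10.5 replicate 2 or E11.5 replicate 1 the count was 1. In surface ectoderm Krt14 (1.83 ± 0.37) and Krt15 (1.54 ± 0.37), keratins of the basal epidermis, rose, and Krt8 (-1.24 ± 0.23), Krt18 (-1.09 ± 0.21), Cldn6 and Cldn7, keratins and junction proteins of simple epithelium, fell. All 6 were called in the same direction in controls. Without mutant E10.5 replicate 3, 0 rose and 1 fell, and without E11.5 replicate 2, 0 rose and 3 fell. Of the remaining marker lists Acta2, an actin of smooth and early skeletal muscle, rose in the pericyte list (3.27 ± 0.63), Isl1 rose and Tubb3 fell among 17 Schwann cell and neuron genes, and Meox2 rose and Pax8 fell among 9 trunk genes. The call of Isl1 was lost without mutant E10.5 replicate 1, E10.5 replicate 3 or E11.5 replicate 1. That of Meox2 was lost without mutant E10.5 replicate 1, 2 or 3 or E11.5 replicate 1 or 2. That of Tubb3 was lost without any 1 of the mutant libraries of both stages. Among 12 platelet genes edgeR called 0 and DESeq2 0, and 1 had an unadjusted p below 0.05.

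The interferon, hypoxia, immediate early and mitochondrially encoded lists had 0 members called in mutants by edgeR and 0 by DESeq2, with 2, 1, 3 and 3 at an unadjusted p under 0.05. Aldh1l2 was the 1 member called in the integrated stress response list (1.55 ± 0.34), and Cd36, a thrombospondin receptor, the 1 in the thrombospondin list (1.68 ± 0.43), which went from 1.39, 1.80 and 2.71 to 9.01, 6.68 and 3.16 CPM while controls were between 0.737 and 1.03 CPM. Aldh1l2 was not called without mutant E10.5 replicate 1, 2 or 3 or E11.5 replicate 2, and Cd36 was called in 1 of the 12 fits without a single library.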

How the data were processed

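RNA came from individual forelimb buds and was sequenced as paired ends, per the labels. The deposited read counts per gene were made with featureCounts 1.6.4 on mm10 with GENCODE M22, strand option 2 and exons summed by gene, per the file headers. Cutadapt, STAR and limma are named in the submitters' processing notes. The deposited log2 FPKM values of 14692 genes, which the authors filtered and normalised, served only as an alternative, tested with limma.

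Here the counts of 18 libraries in 6 groups were fitted together with edgeR 4.0.16 (R 4.3.3; TMM scaling, filterByExpr with a minimum count of 10, robust quasi-likelihood, common biological coefficient of variation 0.231), and p-values were adjusted by Benjamini-Hochberg over 20118 genes. Stage changes in mutants, in controls and their difference were contrasts of that fit. Alternatives used DESeq2 1.42.0 with its size factors, limma-voom 3.58.1, no filter, fewer libraries, a replicate term, a length trend and removal of haemoglobin genes. The pipeline was tested on simulated data. Figures were drawn with matplotlib 3.10.9. Depth ran from 35034237 to 56230058 counts per library, and counts near 0 limit precision most. Replicates of a group differed well beyond sampling noise.

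The compared libraries and the 37 gene lists were chosen with earlier results of these data known. The naming rule took 12 fixed genes, from each list the 4 or fewer genes of lowest adjusted p in mutants, the 12 largest rises and 12 largest falls with non-overlapping libraries and a mean log2 CPM of at least 1, and the 10 smallest adjusted p in each direction for the difference, without predicted genes. Pax7, Tnni1, Nog, Mstn, Col1a2, Trim71, Arid3a, Ebf2, Nfia, Hmga2, Igf2bp1, Ptprv, Eda2r, Fas, Ccng1, Prrx1, Krt14, Krt15 and Ramp2 fall outside it and were chosen after their values were seen. Lum was counted with connective tissue.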

Additional observations from a re-analysis of the deposited data

Results flagged for a closer look

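For 15 genes the change from E10.5 to E11.5 in mutants differed from that in controls by the test of the difference itself (edgeR's quasi-likelihood test, adjusted p under 0.05), and these are the results singled out here. In the cartilage list the log2 difference, mutant change minus control change, was -5.97 for Acan, -2.483 for Col11a2, -1.835 for Col2a1, -2.598 for Col9a3, -6.224 for Matn1, -5.295 for Matn4 and -0.9458 for Wwp2. Outside it the difference was -2.082 for Aqp1, -2.072 for Ebf1, -2.078 for Inka2, -1.924 for Kcnj2, -3.678 for Rflna, -2.589 for Samd12, -2.551 for Sgk1 and 1.22 for Stra6. Inka2 was called in 18 of 22 alternatives, Stra6 in 8, and Ebf1 and Sgk1 in 5.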

How the results depend on the processing

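The direction held in every alternative run for each of the 92 genes that the naming rule chose and that were called in mutants; genes named outside the rule were not run. The mutant count of 581 was 1105 by DESeq2 (741 up and 364 down) and 1234 with the E10.5 and E11.5 libraries alone (862 and 372), and ran from 231 to 722 without single libraries. The control count of 1910 was 3697 with those libraries alone and 3723 without both libraries that stood apart, an alternative chosen after seeing the data, and ran from 694 to 1946. The count of 15 differing genes was 195 by DESeq2, 7 by limma-voom, 26 with the E10.5 and E11.5 libraries alone and 9 on the authors' log2 FPKM, and ran from 0 to 64. Same-numbered mutant libraries of both stages did not deviate together (correlations of -0.0959, -0.0387 and -0.0072), so no pairing of the mutant stages by number was seen. With a replicate block, 508 genes changed in mutants, 1729 in controls and 10 differed. Values that were not called changed sign near 0. With the length trend removed Greb1 was at -0.072 and Wwp2 at -0.022, and without both libraries that stood apart Matn1 was at 0.045. Without single libraries Erg ran from -0.27 to 0.080, Greb1 from -0.046 to 0.11, Col11a2 from -0.13 to 0.30, Wwp2 from -0.012 to 0.10, Acan from -1.66 to 0.17 and Matn1 from -0.28 to 0.040. For counts that moved the cause was not tested.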
